A study of Homo sapiens with 6 samples.

Results

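Integrins are cell surface receptors built from 1 alpha and 1 beta subunit that hold cells to extracellular matrix and to other cells. The 10 genes described here are 8 integrin subunits of lymphoid and general adhesion (ITGA4, ITGA5, ITGA6, ITGAL, ITGAV, ITGB1, ITGB2 and ITGB7), the counter-receptor ICAM1 and the heparan sulfate proteoglycan SDC2. They were taken by symbol from the platform annotation, which gave them 38 probe sets of their own, out of 18244 genes measured. They were proposed with the results of this comparison in view, ITGA6 first, so their changes are given as a description and without a test.

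Expression was measured in L428, an established human Hodgkin lymphoma line that grows in suspension, 48 hours after nucleofection, a form of electroporation, with 3 µg of siRNA. The groups were 3 arrays after an siRNA against BATF3 and 3 arrays after a negative control siRNA, and all 6 were of the same line and received the same electroporation. There was 1 BATF3 siRNA. The labels name no separate cultures, so the spread between replicates may be technical. BATF3 encodes a basic leucine zipper factor of the AP-1 family that pairs with JUN proteins.

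Values are log2 probe set values as the authors deposited them. The siRNA target BATF3 was at 10.77 ± 0.088 after BATF3 siRNA and 11.97 ± 0.10 after control siRNA (SD over 3 arrays per siRNA). The change was -1.20 (SE 0.095), with a limma adjusted p of 0.00673. That adjusted p was 0.0688 when BATF3 siRNA replicate 3 was left out and 0.0648 when control siRNA replicate 2 was. The Hodgkin line markers fixed for the check of the label (TNFRSF8, FUT4, CCL17, IRF4, CD40, TRAF1 and FSCN1) lay above the highest background probe set on every array, in 7 of 7 cases. Of the other markers measured, 0 of 5 of T and NK cells, 0 of 5 of myeloid cells and 0 of 7 of adherent cells did so. Their summed levels overlapped between the groups for each of these 3 cell types. The sums were 35.7 to 36.8 after BATF3 siRNA against 36.1 to 36.4 after control siRNA for adherent cells. For T and NK cells they were 21.9 to 22.3 after BATF3 siRNA against 21.3 to 22.03 after control siRNA. For myeloid cells they were 16.7 to 17.5 after BATF3 siRNA against 16.0 to 17.1 after control siRNA. A sum can hide opposite shifts of single markers. NKG7 and CD163 were higher after BATF3 siRNA without overlap, and CD8A, COL1A2 and KRT18 were lower, all under the highest background probe set. PECAM1, of the adherent cell markers, lay over that probe set on 4 arrays. B cell markers, most of which Hodgkin cells lose, were above it on every array for 2 of 5, namely CD79B and PAX5. Their sums over the 5 were 28.3 to 29.0 after BATF3 siRNA and 27.6 to 28.9 after control siRNA. The array's own background probes of high GC content (20 to 25 G or C) averaged 5.92 and 5.98 on BATF3 siRNA replicates 2 and 3, against 6.49 on BATF3 siRNA replicate 1 and 6.46 to 6.49 on the control arrays. A block for this background sets replicates 2 and 3 apart with no control array beside them. It therefore compares BATF3 siRNA replicate 1 alone with the control arrays, and the BATF3 change was then -1.10. Control siRNA replicate 2 stood apart on the first principal component.

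In alpha-beta pairs the alpha chain largely sets the ligand. ITGA6 binds laminins and pairs with ITGB1 or ITGB4. ITGA4 pairs with ITGB1 to bind VCAM1 and fibronectin and with ITGB7 to bind MADCAM1 in gut vessels, ITGA5 with ITGB1 binds fibronectin, and ITGAV takes several beta chains and binds vitronectin and other proteins with an RGD sequence. ITGAL pairs with ITGB2 as LFA-1, which leukocytes use to hold to ICAM1 on other cells. Syndecans such as SDC2 carry heparan sulfate and act beside integrins in matrix adhesion.

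ITGA6, the laminin-binding alpha chain, was lower after BATF3 siRNA on every array and with every probe set. The probe set that stands for the gene read 8.45, 8.58 and 8.51 after BATF3 siRNA, against 9.23, 8.86 and 9.12 after control siRNA. The 3 BATF3 siRNA arrays lay close together and below the lowest control array, which was replicate 2. The change was -0.56 (SE 0.11), a level of 0.680 of the control. The second probe set read 7.42, 7.51 and 7.51 after BATF3 siRNA, against 8.36, 7.86 and 8.11 after control siRNA, a change of -0.63 (SE 0.13). The third was dim and lay under the highest background probe set on all 6 arrays, at 4.86, 4.43 and 4.64 after BATF3 siRNA against 5.25, 5.0 and 5.06 after control siRNA (change -0.46, SE 0.13). For each of the 3 probe sets the groups did not overlap. BATF3 siRNA replicate 1, whose GC-rich background matched the control arrays, held the lowest value of the 6 arrays with the first and second probe sets. Without control siRNA replicate 2 the change of the first was -0.66. With array background as a block, which leaves BATF3 siRNA replicate 1 alone against the control arrays, its change was -0.62. The part of background in the ITGA6 difference was not tested. In RNA from whole cultures, fewer cells with the transcript and less transcript per cell cannot be told apart.

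**Figure D1:**
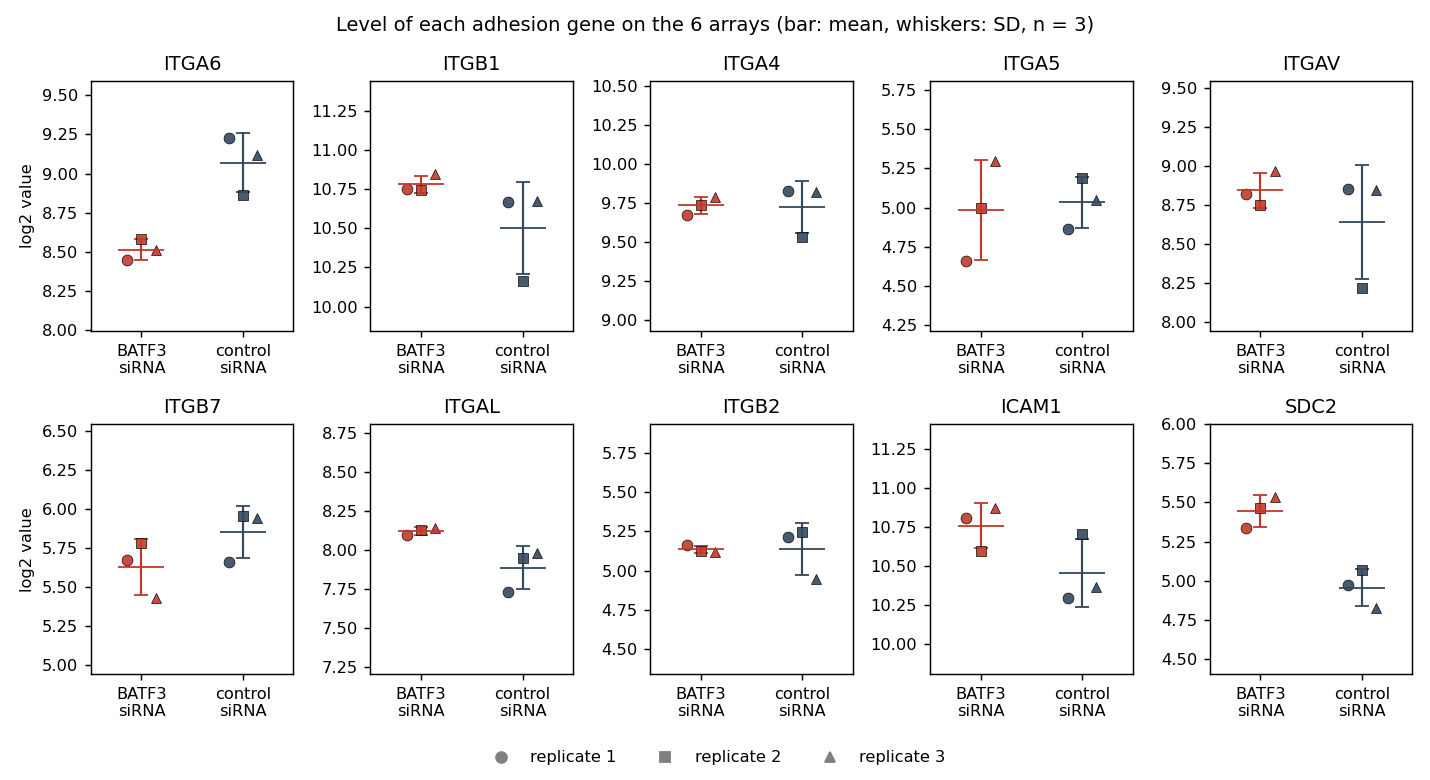
Log2 value (y axis) of the probe set that stands for each of the 10 genes, with BATF3 siRNA left and control siRNA right in each panel. Points are arrays, marked by replicate, bars are means and whiskers are SD (n = 3), and every y axis spans the same range of log2 units. The ITGA6 points of BATF3 siRNA (8.45 to 8.58) lie below those of control siRNA (8.86 to 9.23), and those of SDC2 lie above (5.33 to 5.54 after BATF3 siRNA against 4.83 to 5.07 after control siRNA).

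Of the beta chains that ITGA6 can pair with, ITGB1 is shared by many alpha chains. ITGB1 read 10.75, 10.75 and 10.84 after BATF3 siRNA, against 10.67, 10.16 and 10.68 after control siRNA, a change of 0.28 (SE 0.14). The groups did not overlap, but 2 of the control arrays lay just under the BATF3 siRNA arrays and control siRNA replicate 2 lay far under them. Without that array the ITGB1 change was 0.11. Its 5 probe sets changed by -0.22 to 0.28, with 3 of 5 positive, and the groups overlapped for the other 4. The probe set at -0.22 lay under the highest background probe set on every array, and the one at 0.15 lay over it on 2 arrays. Those over it on every array ran from -0.033 to 0.28. ITGB4, named here for its role, read 6.70, 6.39 and 6.67 after BATF3 siRNA, against 6.57, 6.58 and 6.73 after control siRNA, under the highest background probe set on all arrays (change -0.037, SE 0.11; limma adjusted p = 0.966). Neither beta chain was lower together with ITGA6 on all arrays.

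The alpha chains of the fibronectin and vitronectin receptors overlapped between the groups. ITGA4 read 9.68, 9.74 and 9.79 after BATF3 siRNA, against 9.83, 9.53 and 9.82 after control siRNA (change 0.0086, SE 0.10), and its 5 probe sets ran from -0.17 to 0.27. ITGA5 was dim, at 4.66, 5.0 and 5.30 after BATF3 siRNA against 4.87, 5.19 and 5.05 after control siRNA (change -0.047, SE 0.16), and all 4 of its probe sets lay under the highest background probe set on every array. ITGAV read 8.82, 8.75 and 8.97 after BATF3 siRNA, against 8.85, 8.22 and 8.85 after control siRNA (change 0.20, SE 0.16). Each of the 5 ITGAV probe sets was positive, by 0.065 to 0.59, yet the groups overlapped for all of them. The one at 0.59 averaged 4.12 after BATF3 siRNA and 3.53 after control siRNA. It lay under the highest background probe set on every array, as did the one at 0.25. The one at 0.26 lay over it on 2 arrays, and those over it on every array were at 0.20 and 0.065. Control siRNA replicate 2 was the lowest array for ITGAV, and without it the change was -0.0045. ITGB7, the gut-homing partner of ITGA4, read 5.67, 5.78 and 5.43 after BATF3 siRNA, against 5.66, 5.95 and 5.94 after control siRNA (change -0.22, SE 0.12, and -0.12 without BATF3 siRNA replicate 3), and it too lay under the highest background probe set.

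The LFA-1 pair differed between its chains in level over background. ITGAL read 8.09, 8.13 and 8.14 after BATF3 siRNA, against 7.73, 7.95 and 7.98 after control siRNA (change 0.23, SE 0.096), without overlap, and the change was 0.15 without control siRNA replicate 1. A second ITGAL probe set was at 0.27 (SE 0.10), also without overlap, and lay over the highest background probe set on 4 arrays. The 2 dimmer ones were at 0.051 and -0.10 and lay under it on every array. ITGB2 had 1 probe set, which stayed under the highest background probe set on every array, at 5.16, 5.13 and 5.12 after BATF3 siRNA against 5.22, 5.25 and 4.94 after control siRNA (change -0.00052, SE 0.10). Whether the ITGB2 probe set reads its transcript well was not tested.

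ICAM1, the ligand of LFA-1 and a known target of NF-kappaB, had higher mean levels after BATF3 siRNA with all 3 of its probe sets, at changes of 0.27 to 0.37. The probe set that stands for the gene read 10.81, 10.60 and 10.87 after BATF3 siRNA, against 10.29, 10.70 and 10.37 after control siRNA (change 0.30, SE 0.13). The groups overlapped because control siRNA replicate 2 lay above BATF3 siRNA replicate 2, and without that control array the change was 0.43. The ICAM1 probe set with the lowest level read 9.97, 9.90 and 10.15 after BATF3 siRNA, against 9.64, 9.56 and 9.69 after control siRNA, without overlap (change 0.37, SE 0.099).

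SDC2, a proteoglycan best known from mesenchymal cells, was higher after BATF3 siRNA with 6 of 6 probe sets. The probe set that stands for the gene read 5.33, 5.47 and 5.54 after BATF3 siRNA, against 4.97, 5.07 and 4.83 after control siRNA, a change of 0.49 (SE 0.10) or 1.40 times the control level. The probe set with the widest difference read 5.38, 5.56 and 5.57 after BATF3 siRNA, against 4.68, 4.62 and 4.87 after control siRNA, a change of 0.78 (SE 0.10) or 1.72 times. The groups did not overlap for 5 of 6 probe sets, and the sixth was at 0.24 (SE 0.14). On every array SDC2 read lower than the highest background probe set, so the size of the difference is uncertain. BATF3 siRNA replicate 1, whose GC-rich background matched the control arrays, was the lowest of the 3 BATF3 siRNA arrays (5.33) and above the highest control (5.07). With array background as a block, which leaves BATF3 siRNA replicate 1 alone against the control arrays, the change was 0.38. The part of background in the SDC2 difference was not tested.

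**Figure D2:**
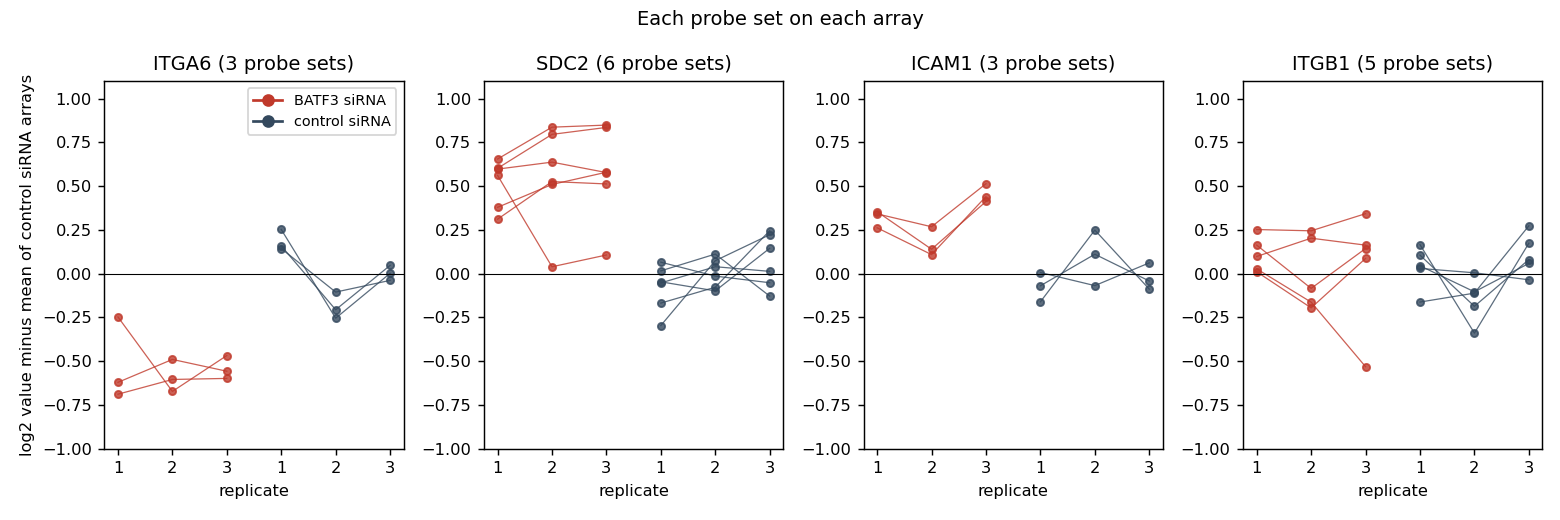
Each probe set of ITGA6, SDC2, ICAM1 and ITGB1 on each array, as the log2 value minus the mean of the control siRNA arrays for that probe set (y axis), with the 3 BATF3 siRNA arrays left of the 3 control arrays. A line joins the values of 1 probe set and implies no order. All 3 ITGA6 probe sets lie below 0 on the BATF3 siRNA arrays, while the 5 of ITGB1 lie on both sides of 0.

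In all, the groups did not overlap for 4 of the 10 genes, ITGA6 (lower) and ITGB1, ITGAL and SDC2 (higher), where this held for 12.1% of all genes (6.36% higher and 5.78% lower). Per probe set it held for 12 of 38, against 12.2% of all probe sets. The threshold of an adjusted p under 0.05 was passed by 0 of the 10, where 0.0164% of all genes passed it. These shares describe the chosen genes and carry no weight as evidence, because the choice used the same comparison. The median change of the 10 was 0.11, with 6 of 10 positive, and that of all genes was -0.0027, with 49.0% positive.

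**Figure D3:**
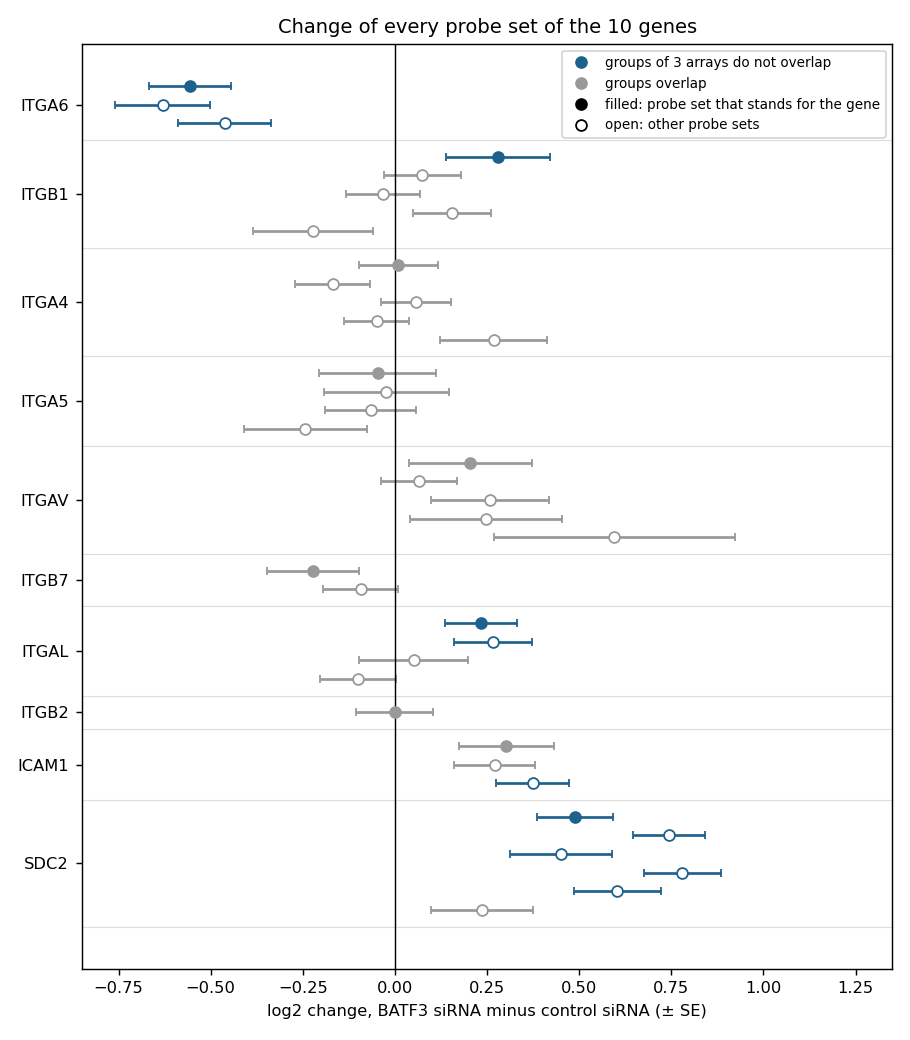
Log2 change, BATF3 siRNA minus control siRNA, with its SE from limma (x axis) for each of the 38 probe sets, grouped by gene (y axis). Filled points are the probe sets that stand for a gene and blue marks groups that do not overlap. The probe sets of ITGA6 (-0.63 to -0.46) and SDC2 (0.24 to 0.78) each lie on 1 side of 0, while those of ITGA4 (-0.17 to 0.27) do not.

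The promoter windows searched were the 250 bases before each annotated gene start (RefSeq, GRCh38.p14), of which 10 windows belonged to 7 of the genes. ITGAL, ITGB2 and SDC2 had no window and were not searched. The core AP-1 motif TGANTCA, which reads the same on both strands, was in 0 of these 10 windows and in 6.57% of all 35116 windows. At that share, 10 windows are too few to tell an absence from the background, so no conclusion is drawn from it. The kappaB motif GGAAATTCC, looked for on both strands because it is a known element of the ICAM1 promoter, was in 1 of the 10, that of ICAM1, and in 0.413% of all windows. Since the motif was chosen for ICAM1, this match could be foreseen and the 2 shares carry no weight as evidence. The windows of ITGA6, the first gene of the choice, and of ICAM1, the gene with a match, are shown. Of the 2 ITGA6 windows the one before the first annotated start is shown. Neither ITGA6 window held either motif. Both printed windows are on the plus strand, ITGA6 at chr2:172427086-172427335 and ICAM1 at chr19:10270870-10271119, and capitals mark GGAAATTCC.
ITGA6: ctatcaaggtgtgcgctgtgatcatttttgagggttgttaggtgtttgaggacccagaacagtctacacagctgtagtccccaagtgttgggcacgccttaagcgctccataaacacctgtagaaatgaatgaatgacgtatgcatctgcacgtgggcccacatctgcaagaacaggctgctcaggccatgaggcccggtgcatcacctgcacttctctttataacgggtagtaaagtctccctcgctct
ICAM1: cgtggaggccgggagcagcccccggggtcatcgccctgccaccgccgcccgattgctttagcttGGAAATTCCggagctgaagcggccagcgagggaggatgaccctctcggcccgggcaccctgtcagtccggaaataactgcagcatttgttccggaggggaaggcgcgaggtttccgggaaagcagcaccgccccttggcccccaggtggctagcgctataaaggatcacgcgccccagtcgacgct
A match is letters only, and binding was not measured here.

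The genes whose values over the 6 arrays were most like those of ITGA6 were picked by the smallest root mean square difference, after each gene's own mean was taken off, among 18234 other genes. They were G3BP2 (a stress granule protein) at 0.074, RGS21 at 0.089, SERPINF1 (a secreted serpin) at 0.097, LOC100287290 at 0.0997 and ARMC1 at 0.105 log2 units, against a median of 0.327 over all genes. G3BP2 read 10.29, 10.23 and 10.24 after BATF3 siRNA, against 10.90, 10.66 and 10.94 after control siRNA. As for ITGA6, its BATF3 siRNA arrays lay close together and control siRNA replicate 2 was the lowest control. The genes were picked for this likeness over the same arrays, so it carries no weight as evidence. RGS21 averaged 2.13 after BATF3 siRNA and 2.53 after control siRNA, at the dim end of the array. SERPINF1 averaged 5.29 after BATF3 siRNA and 5.68 after control siRNA, and LOC100287290 6.22 after BATF3 siRNA and 6.79 after control siRNA. RGS21, SERPINF1 and LOC100287290 lay under the highest background probe set on every array.

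Other genes of integrin adhesion were taken from 8 lists, and 115 of their 122 genes were measured. None of the 115 passed the threshold in limma (0 higher and 0 lower), and 15 had an unadjusted p under 0.05, where 1304 of all 18244 genes did. The median change of the lists together was -0.024, with 50 of 115 positive.

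Among 13 other integrin alpha subunits 0 passed, with a median of -0.00069 and 6 of 13 positive. ITGAX, the alpha chain of a complement receptor on myeloid and dendritic cells, was at 7.80 ± 0.15 after BATF3 siRNA and 7.28 ± 0.24 after control siRNA (SD, n = 3 each; change 0.53, limma adjusted p = 0.448). ITGAX lay over the highest background probe set on 4 arrays, all those of BATF3 siRNA and control siRNA replicate 3. ITGA10, a collagen receptor chain, was dim with a change of 0.28 (limma adjusted p = 0.809), which was 0.065 without control siRNA replicate 1. Of 5 other beta subunits 0 passed. ITGB3, a partner of ITGAV, stood at 5.12 ± 0.095 after BATF3 siRNA and 4.70 ± 0.12 after control siRNA (change 0.42, limma adjusted p = 0.418), under the highest background probe set. ITGB6, another partner of ITGAV, had a change of 0.091 (limma adjusted p = 0.912), which was 0.0015 without control siRNA replicate 1. ITGB6 too lay under the highest background probe set on all arrays.

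Laminin chains, which form the ligands of ITGA6, gave 0 calls among 10 measured, with 4 of 10 positive and a median of -0.013. LAMA2 was at 4.94 ± 0.10 after BATF3 siRNA and 4.48 ± 0.18 after control siRNA (change 0.46, limma adjusted p = 0.446), and LAMB3 at 7.17 ± 0.13 after BATF3 siRNA and 6.78 ± 0.094 after control siRNA (change 0.39, limma adjusted p = 0.459). The groups did not overlap for either chain. LAMA2 lay under the highest background probe set on all arrays and LAMB3 on 4 of 6. LAMB3 lay over it only on BATF3 siRNA replicates 2 and 3, where that probe set was lowest (6.68 and 6.73). Among 17 other ligands and counter-receptors 0 passed, with 9 of 17 positive. SPP1, or osteopontin, which binds ITGAV pairs and ITGA4, stood at 9.25 ± 0.15 after BATF3 siRNA and 8.65 ± 0.44 after control siRNA (change 0.59, limma adjusted p = 0.569), and its change was 0.34 without control siRNA replicate 2. JAM2, a junction molecule that binds ITGA4 with ITGB1, was at 9.09 ± 0.21 after BATF3 siRNA and 9.35 ± 0.031 after control siRNA (change -0.26, limma adjusted p = 0.699), with a change of -0.14 without BATF3 siRNA replicate 2.

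Among 19 genes of integrin activation 0 passed, with a median of -0.020. FERMT2, a kindlin that binds beta chain tails, had a change of 0.28 (limma adjusted p = 0.602) and TLN2, a talin, one of -0.30 (0.644). TLN2 averaged 4.20 after BATF3 siRNA and 4.50 after control siRNA, under the highest background probe set on all arrays. The 25 genes of adhesion signalling and actin linkage gave 0 calls, with 8 of 25 positive and a median of -0.058. There ACTN1, an actinin that crosslinks actin, was at 0.19 (limma adjusted p = 0.689) and PXN, the scaffold paxillin, at -0.16 (0.785). PXN lay over the highest background probe set on 4 arrays.

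Of the other 14 syndecan and heparan sulfate genes 0 passed, with 5 of 14 positive and a median of -0.095, where SDC2 stood at 0.49. HS2ST1, a heparan sulfate sulfotransferase, was at 9.76 ± 0.060 after BATF3 siRNA and 10.04 ± 0.065 after control siRNA (change -0.28, limma adjusted p = 0.543). GPC1, a glypican, lay over the highest background probe set on 2 arrays and had a change of -0.34 (limma adjusted p = 0.579). Its change was -0.10 with array background as a block, from BATF3 siRNA replicate 1 alone against the control arrays. HS2ST1, TLN2, ACTN1 and ITGB6 turned sign with their most variable probe set. Tetraspanins and membrane partners of integrins gave 0 calls among 12, with PLAUR, the urokinase receptor, at 0.39 (limma adjusted p = 0.666; 0.25 without control siRNA replicate 1) and SLC3A2, a heavy chain of amino acid transporters that binds beta chains, at 0.20 (0.782; 0.13 without the same array). PLAUR lay under the highest background probe set on all arrays.

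**Figure D4:**
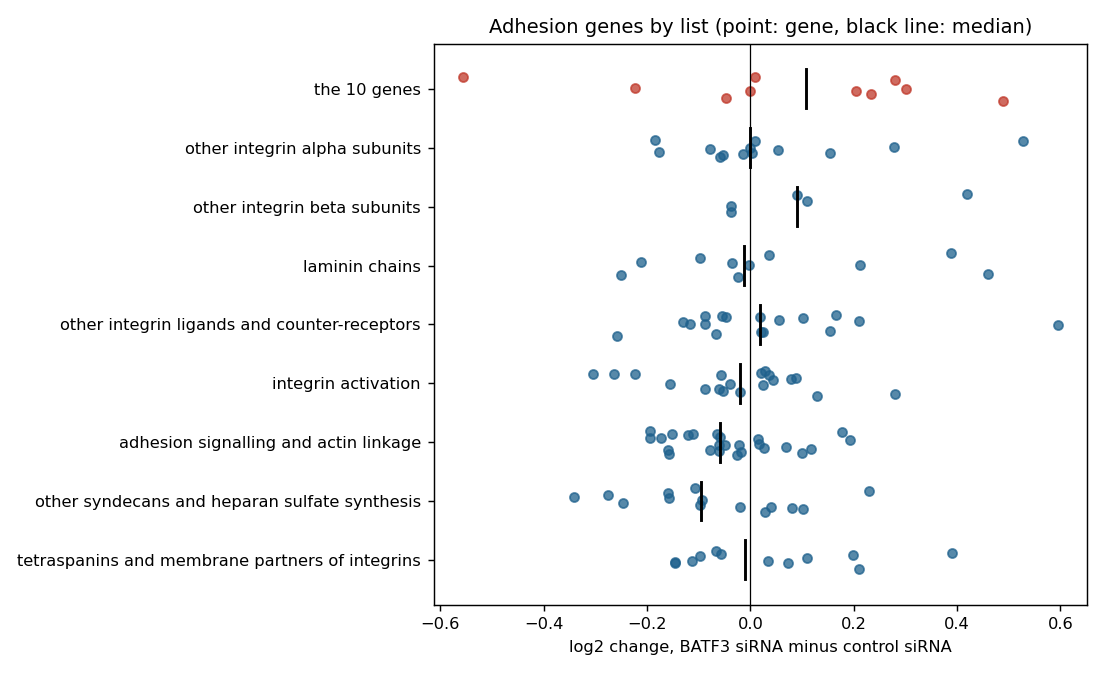
Log2 change, BATF3 siRNA minus control siRNA (x axis), of the 10 genes (top row) and of the 115 measured genes of the 8 adhesion lists (lower rows). Points are genes and black lines are list medians, which run from -0.095 to 0.091 in the lists. ITGA6 is the leftmost point, at -0.56.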

How the data were processed

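Total RNA of L428 cells was labelled and hybridised to Affymetrix PrimeView arrays, 3 for each siRNA, per the labels. The deposited table held log2 values for 49495 probe sets, 102 of them controls, and the log base was inferred from their range. Per the submitters' processing notes the affy package was used. How background was corrected, arrays normalized and probes summarized is not given in the labels used here. Arrays on a common scale do not show a shift of most transcripts at once, and the number of arrays limits the precision.

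Of the probe sets 45278 had 1 gene symbol, 1333 several and 2782 none, and Entrez identifiers matched a RefSeq table (GRCh38.p14) for 45208. For each gene the brightest probe set by its mean over all arrays was used. Differences were fitted with limma 3.58.1 in R 4.3.3 (lmFit, eBayes, two-sided), BATF3 siRNA minus control siRNA, with no covariate, and adjusted by Benjamini-Hochberg over 18244 genes. Calls needed an adjusted p under 0.05. The median SE of a change was 0.107. The fit was tested on simulated data. A probe set is set against the highest of the array's background probe sets, and the base content of the probes was not examined. That highest value was 6.68 and 6.73 on BATF3 siRNA replicates 2 and 3, and 7.11 to 7.32 on the other arrays.

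The 10 genes, the lists and the alternatives were chosen with earlier results of these data known. The genes named are the 10, BATF3, up to 4 called genes of each list or else the 2 with the smallest p, and the 5 nearest to ITGA6. Alternatives changed the normalization, the probe set per gene, a filter on dim genes, array weights, the variance prior, the replicate number or array background as a block, and left out each array. The array background block split the GC-rich mean at 6.2, and its low side held no control array. Its changes therefore rest on BATF3 siRNA replicate 1 alone against the control arrays. List genes with no probe set of their own were not analysed here.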

Additional observations from a re-analysis of the deposited data

How the results depend on the processing

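Over 15 alternatives the ITGA6 change stayed negative, from -0.66 without control siRNA replicate 2 to -0.48 without control siRNA replicate 1, and it moved by less than the SD of replicates pooled over both groups. The changes of SDC2 (0.38 to 0.78), ICAM1 (0.22 to 0.43) and ITGAL (0.051 to 0.28) stayed positive, and that of ITGB7 stayed negative (-0.32 to -0.12), while SDC2, ITGA5, ITGB2 and ITGB7 were left out under the filter on dim genes. For the most variable probe set the change was 0.27 for ITGA4, 0.051 for ITGAL, 0.59 for ITGAV, -0.22 for ITGB1 and 0.78 for SDC2. The same setting gave HS2ST1 0.33, TLN2 0.11, ACTN1 -0.088 and ITGB6 -0.081. With array background as a block, from BATF3 siRNA replicate 1 alone against the control arrays, ITGA5 was at -0.37. The mean of probe sets gave ITGAX 0.30, ITGB3 0.088, LAMB3 0.20, ITGA10 0.095, GPC1 -0.20, PLAUR 0.19, TLN2 -0.099 and HS2ST1 -0.057, and array weights gave ITGAX 0.35 and SPP1 0.39. For the mean of probe sets ITGAL was at 0.11 and ITGB1 at 0.051. Each is the average over all probe sets of the gene, those under the highest background probe set included. The cause of the other shifts was not tested.

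The 3 calls over all genes became 25 with array weights, 12 with an intensity trend and robust prior, 9 with the filter on dim genes and 5 with the most variable probe set. Array background as a block leaves 1 BATF3 siRNA array against the control arrays, so its calls are not compared here. With array weights, under which control siRNA replicate 3 weighed 3.85 and replicate 2 weighed 0.38, ITGA6 and SDC2 were among the 25 calls (0.137% of all genes), which carries no weight as evidence since the choice of the genes used this comparison. With array background as a block set aside, none of the other alternatives called any of the 10 genes. No alternative, array weights included, called a gene of the adhesion lists. Leaving out 1 array gave 0 to 2 calls, with 0 without BATF3 siRNA replicate 3 (852 at an unadjusted p under 0.05 in limma) or control siRNA replicate 2 (1446). The BATF3 change was -1.24 to -1.14 when 1 array was left out. It was -1.10 with array background as a block, from BATF3 siRNA replicate 1 alone against the control arrays.

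Deviations from the group means correlated across genes at 0.029, 0.15 and -0.025 between the arrays of replicate numbers 1, 2 and 3. Between arrays of unlike number the correlations ran from -0.10 to 0.097. With 3 arrays per group these values cannot tell whether the numbers pair the arrays. With the replicate number as a block 3 genes were called, and the ITGA6 change was -0.56. The number of arrays limits all of these values, and ITGA5, ITGB2, ITGB7 and SDC2 lay under the highest background probe set on every array.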
